A study of Homo sapiens with 13 samples.

Results

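Osteoblasts, the cells that form bone, also control the cells that resorb it, the osteoclasts, through a small set of secreted and membrane-bound proteins. The genes of 5 such signals were followed in cultured human osteoblasts: TNFSF11, TNFRSF11B, CSF1, IL34 and SEMA3A. They were chosen by name, as the rows of the count table whose Ensembl identifier carries 1 of these symbols. The choice was made with earlier results of these data known. All 5 were found among the 43836 genes of the table, and all 5 had enough reads to be tested.

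Messenger RNA was sequenced from hFOB cells, a clonal human fetal osteoblast line made immortal with a temperature-sensitive large T antigen, so every group here is the same clone and carries a viral oncogene. The 12 libraries with counts came from 5 groups: positive controls grown with 10% fetal bovine serum (FBS, 2 libraries), negative controls grown without FBS (serum-starved, 2 libraries), serum-starved cells given RES, which is resveratrol (3 libraries), serum-starved cells given POG, which is peonidin-3-O-glucoside, an anthocyanin (3 libraries), and cells given DEG, a code that the labels do not spell out (2 libraries). A further labelled DEG sample was not analysed here. Each compound was given at 1 µg/mL, and per the study's methods both controls held the DMSO vehicle. For DEG, the serum state of the cells and the time of exposure are not given in the sources used here. Per the study's methods RES and POG were added to triplicate wells, but it is not stated which wells made up a library or whether they were separate cultures, so p-values measure only the spread between these libraries, which may be technical.

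TNFSF11 encodes RANKL, the membrane-bound or shed ligand that drives osteoclast precursors to become osteoclasts when it binds the receptor RANK. TNFRSF11B encodes osteoprotegerin, a secreted decoy receptor that binds RANKL and keeps it from RANK, so the balance of ligand to decoy sets how much RANK signal reaches the precursors. CSF1 and IL34 are ligands of the receptor CSF1R, which the precursors need to survive and multiply. SEMA3A is a secreted semaphorin that holds back osteoclast formation and favours bone formation through neuropilin and plexin receptors.

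TNFSF11 is shown by its promoters, since it was the only gene of the 5 with promoters in the reference used. Its transcript also showed the widest difference between groups among the 5. TNFSF11 (ENSG00000120659.14) lies at chr13:42562736-42608013 on the plus strand of hg38 in GENCODE v44, and its start sites in the RefSeq promoter table (GRCh38.p14) are 11416 bases apart. The counts are per gene and do not tell the starts apart. The 250 bases before each start are printed 5′ to 3′ on the plus strand, with capitals marking a match to a CRE half-site (TGACG) in the first and to a TATA box core (TATAAA, here on the minus strand) in the second.
TNFSF11 start 1, chr13:42562486-42562735: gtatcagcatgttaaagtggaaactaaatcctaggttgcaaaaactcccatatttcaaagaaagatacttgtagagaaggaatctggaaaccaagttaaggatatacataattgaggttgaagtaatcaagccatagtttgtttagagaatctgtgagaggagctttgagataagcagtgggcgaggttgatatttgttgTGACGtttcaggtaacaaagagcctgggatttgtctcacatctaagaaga
TNFSF11 start 2, chr13:42573902-42574151: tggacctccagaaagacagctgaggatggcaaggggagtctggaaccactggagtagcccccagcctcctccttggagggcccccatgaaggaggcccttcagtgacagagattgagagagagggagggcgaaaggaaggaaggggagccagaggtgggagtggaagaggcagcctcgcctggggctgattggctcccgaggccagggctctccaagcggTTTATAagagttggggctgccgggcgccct
Start 1 was preceded by AT-rich sequence (GC content 37.6%) and start 2 by GC-rich sequence (62.8%). The median over the 35116 promoter windows of this length was 58.0%. Counting back from −1 next to the start, the CRE half-site lay at −50 to −46 of start 1 and the TATA box core at −30 to −25 of start 2. On both strands, TGACG was held by 21.2% of 35116 promoter windows of this length and TATAAA by 10.7%. An E box (CANNTG, held by 61.8%) was found at −234 to −229 of start 2. The RUNX core TGTGGT (held by 10.98%) and the AP-1 site TGANTCA (6.57%) had no match in either window. These matches describe letters in the sequence and say nothing of binding. No promoter of the other 4 genes was in the table.

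Library totals ran from 38464619 to 51416358 counted reads. Libraries of a group differed from each other by 2.07 to 2.66 times the sampling noise outside the positive controls, and by 10.96 times in the positive controls. Levels are given in CPM, a gene's share of a library's reads, times 1e6, after scaling by the trimmed mean of M values (TMM). The bone matrix genes COL1A1, COL1A2 and SPARC were abundant, and the summed level of 9 osteoblast markers lay between 4748.7 and 5519.7 CPM in every library. RUNX2 was at 44.3 to 51.6 CPM a library and ALPL at 3.22 to 6.66 CPM. The remaining osteoblast markers were low. IBSP, bone sialoprotein, had 1 read over all libraries. SP7, osterix, had 0 to 8 reads a library, PHEX had 2 to 19, and BGLAP, osteocalcin, had 19 to 90. Of 4 osteocyte markers MEPE was at 0 and the summed level reached at most 0.0948 CPM. Among 11 osteoclast and myeloid markers (31.9 to 40.7 CPM summed) most of the sum came from ITGB3 (8.18 to 17.0 CPM), CTSK (8.79 to 12.4 CPM) and TNFRSF11A (9.22 to 10.9 CPM), which were present in every library, as were ACP5 with 18 to 69 reads and CD14 with 12 to 68. The leukocyte gene PTPRC had 0 to 7 reads and the calcitonin receptor gene CALCR 0 to 3. Of 5 lymphocyte markers, CD3E, CD3D and MS4A1 were at 0 in every library.

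The 5 genes were expressed at very different levels. Per length of exon, CSF1 was the most abundant, at a mean of 25.5 CPM per kb over all libraries, followed by TNFRSF11B at 14.3 CPM per kb and SEMA3A at 4.51 CPM per kb. IL34 was at 0.409 CPM per kb and TNFSF11 at 0.109 CPM per kb. The decoy receptor transcript was therefore far more abundant than that of its ligand: 18672 reads fell on TNFRSF11B and 152 on TNFSF11 over the 12 libraries. All values of TNFSF11 and IL34 rest on 56 reads a library or fewer, and counting error is a large part of their spread.

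**Figure D1:**
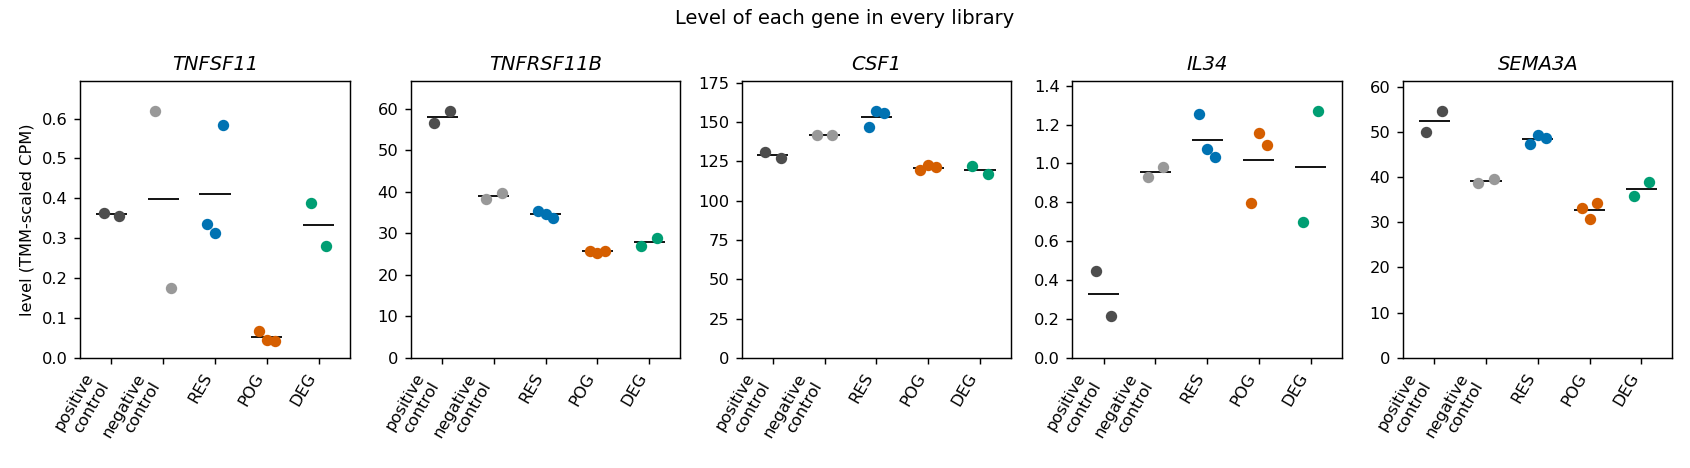
Level of each gene in TMM-scaled CPM (vertical axis, starting at 0, its own scale for each gene) in each of the 12 libraries (points) by group, with a bar at the group mean. The 3 POG libraries sit at 0.0430 to 0.0666 CPM for TNFSF11, below every other library, and the 2 positive controls sit highest for TNFRSF11B and lowest for IL34.

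Differences were called where the edgeR exact test, adjusted over 17092 genes, gave a false discovery rate (FDR) below 0.05. As compared with negative controls, POG-treated osteoblasts had lower TNFSF11, TNFRSF11B, CSF1 and SEMA3A, so 4 of the 5 genes were called, all lower, where 14.5% of all tested genes were called in either direction and 8.57% were lower. RES-treated osteoblasts had lower TNFRSF11B and higher CSF1 and SEMA3A, so 3 of 5 were called, against 11.2% of all genes. DEG-treated osteoblasts had lower TNFRSF11B and CSF1, 2 of 5 called against 9.63% of all genes. Positive controls had higher TNFRSF11B and SEMA3A and lower CSF1 and IL34, 4 of 5 called against 42.4% of all genes. These 4 comparisons share the negative control libraries.

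**Figure D2:**
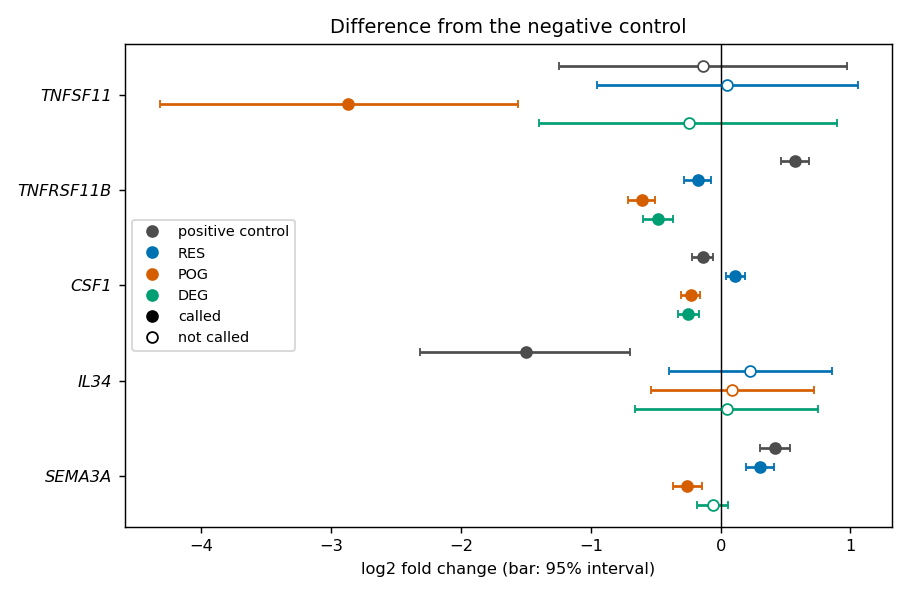
Log2 fold change of each gene against the negative controls (horizontal axis) in positive controls, RES, POG and DEG, with bars for the 95% interval of the edgeR quasi-likelihood fit and filled points for called genes. TNFSF11 in POG lies farthest from 0, at −2.87, and its intervals are the widest together with those of IL34.

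TNFSF11, the ligand, was nearly absent from POG-treated osteoblasts, with 3, 2 and 2 reads in the 3 libraries. Negative controls had 24 and 7 reads, positive controls 18 and 15, RES-treated osteoblasts 15, 14 and 26, and DEG-treated osteoblasts 15 and 11. Every POG library lay below all others, while the other 4 groups overlapped. The negative controls were far apart: the exact 95% Poisson intervals of their reads, 15.4 to 35.7 and 2.81 to 14.4, did not overlap.

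In TMM-scaled CPM, TNFSF11 was at 0.0516 ± 0.0130 in POG (SD, n = 3) and at 0.398 ± 0.314 in negative controls (SD, n = 2). The difference was −2.87 on the log2 scale (SE 0.676, 7.32-fold lower, edgeR exact test, FDR 1.11e-04). It depended on a single control: without negative control replicate 1, which had 24 reads, it was −1.72 and was not called (edgeR exact test, FDR 0.279). TNFSF11 was also lower in POG than in positive controls, by −2.74 (SE 0.673, edgeR exact test, FDR 4.82e-05), and this call stood with each library left out in turn. In RNA from a whole culture, fewer cells with a transcript and less transcript per cell cannot be told apart.

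RES left TNFSF11 at 0.411 ± 0.150 CPM (SD, n = 3), and its log2 difference from negative controls was 0.05, with a 95% interval of −0.95 to 1.05 (edgeR exact test, FDR 1). For DEG, at 0.334 ± 0.0761 CPM (SD, n = 2), the log2 difference was −0.25, with an interval of −1.40 to 0.90 (edgeR exact test, FDR 0.906). For positive controls, at 0.360 ± 0.00608 CPM (SD, n = 2), it was −0.14, with an interval of −1.25 to 0.97 (edgeR exact test, FDR 0.877). At this depth, changes of TNFSF11 within these intervals were not detectable, and each of the 3 differences changed sign with a negative control left out. The order of the means was RES, negative control, positive control, DEG and POG, and among neighbours in this order the edgeR exact test called DEG against POG alone.

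TNFRSF11B, the decoy receptor (ENSG00000164761.8, at chr8:118923557-118951885 on the minus strand of hg38), was highest in serum. Its level was 56.6 and 59.6 CPM in positive controls, 38.4 and 39.8 CPM in negative controls, 35.4, 34.7 and 33.6 CPM in RES, 27.0 and 28.9 CPM in DEG, and 25.7, 25.3 and 25.8 CPM in POG. No 2 groups overlapped.

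As compared with negative controls, TNFRSF11B rose in positive controls by 0.57 on the log2 scale (SE 0.0524, 1.48-fold, edgeR exact test, FDR 7.34e-25). It was lower in POG by −0.61 (SE 0.0509, 1.53-fold lower, edgeR exact test, FDR 4.15e-28) and in DEG by −0.48 (SE 0.0566, 1.40-fold lower, edgeR exact test, FDR 2.91e-14). These 3 calls were kept in every alternative run. RES gave the smallest difference, −0.18 (SE 0.0498, 1.13-fold lower, edgeR exact test, FDR 0.00905), and it was not called without negative control replicate 2 (edgeR exact test, FDR 0.216) or without RES replicate 3 (edgeR exact test, FDR 0.0623). Ligand and decoy transcripts were thus both lower in POG, though the ligand difference of −2.87 became −1.72 without negative control replicate 1. In serum the decoy rose with no called difference in the ligand, whose 95% interval was wide (−1.25 to 0.97).

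The ligand to decoy ratio was taken within each library as TNFSF11 reads per 1000 TNFRSF11B reads, so that library scaling plays no part. It was 6.43 and 5.97 in positive controls, 16.2 and 4.42 in negative controls, 9.51, 9.003 and 17.3 in RES, 2.59, 1.79 and 1.67 in POG, and 14.4 and 9.67 in DEG. The POG libraries lay below all others, and the negative controls spanned most of the remaining range. Pooled over a group's libraries, the ratio was 2.01 in POG (exact 95% binomial interval 0.809 to 4.15, counting error only), 6.21 in positive controls (4.27 to 8.74), 10.1 in negative controls (6.85 to 14.4), 11.9 in RES (8.93 to 15.5) and 11.9 in DEG (7.77 to 17.5). The POG interval did not meet any other.

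Over the 5 groups, the log2 ratio per library (0.5 read added to each gene) differed by an exact permutation test of the F statistic (F = 7.31, p = 0.0171 over 1663200 arrangements of the libraries). The difference of group means was −1.87 on the log2 scale for POG against negative controls (3.66-fold lower, exact two-sided permutation p = 0.2, the smallest this design allows) and −2.28 for POG against RES (4.87-fold lower, exact two-sided permutation p = 0.1, again the smallest allowed). DEG was 2.34 higher than POG (exact two-sided permutation p = 0.2, the smallest allowed). For positive controls, RES and DEG against negative controls the log2 differences were −0.47, 0.41 and 0.47, with overlapping libraries, and each took the other sign without 1 of the negative controls. The F test passed p of 0.05 by a narrow margin: without POG replicate 2 the exact permutation p was 0.0598, without POG replicate 3 it was 0.0625, and on ranks it was 0.0528.

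**Figure D3:**
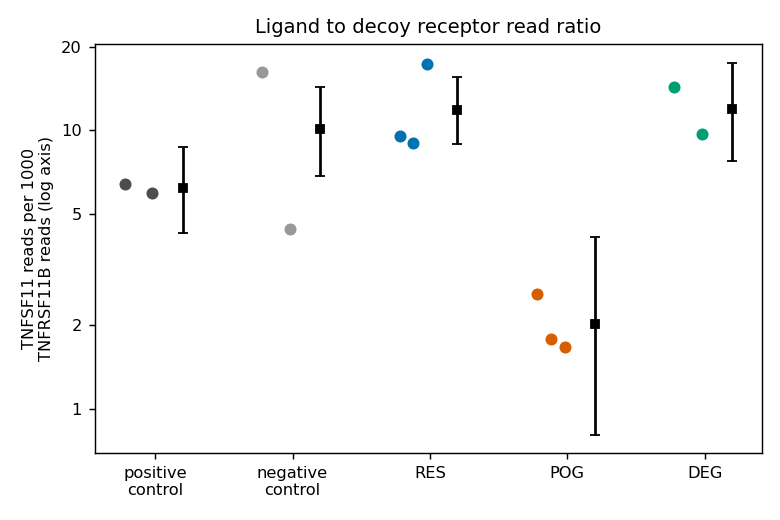
TNFSF11 reads per 1000 TNFRSF11B reads (vertical axis, log scale) in each library (points) by group, with a square for the reads pooled over the group and a bar for its exact 95% binomial interval, which covers counting error only. The POG libraries sit at 1.67 to 2.59 and its interval ends at 4.15, below the interval of every other group.

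CSF1, a ligand of CSF1R (ENSG00000184371.13, at chr1:109910242-109930992 on the plus strand of hg38), varied over a narrow range. Its level was 131 and 127 CPM in positive controls, 142 CPM in each negative control, 147, 157 and 156 CPM in RES, 119, 123 and 121 CPM in POG, and 122 and 117 CPM in DEG. RES libraries lay above and POG and DEG libraries below every negative control, and POG and DEG overlapped each other.

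The log2 difference of CSF1 from negative controls was −0.23 in POG (SE 0.0353, 1.17-fold lower, edgeR exact test, FDR 1.40e-07) and −0.25 in DEG (SE 0.0392, 1.19-fold lower, edgeR exact test, FDR 4.23e-07), and both calls stood in every alternative run. RES raised it by 0.11 (SE 0.0352, 1.08-fold, edgeR exact test, FDR 0.0359), a call lost with no filter on low counts (FDR 0.0693) and without RES replicate 2, RES replicate 3 or either negative control (edgeR exact test, FDR 0.145 to 0.235). Positive controls were lower by −0.14 (SE 0.0387, edgeR exact test, FDR 0.00334), which was not called with dispersions from the 2 groups alone (FDR 0.0733). Against positive controls, CSF1 was lower in POG by −0.09 and in DEG by −0.11 (edgeR exact test, FDR 0.0406 and 0.0255). Neither was called by that test with plain library totals (FDR 0.652 and 0.377), no filter (FDR 0.126 and 0.0643) or dispersions from the groups compared (FDR 0.102 and 0.163). The call in POG was also lost with any POG library left out (edgeR exact test, FDR 0.0529 to 0.137), and that in DEG without DEG replicate 2.

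IL34, the other ligand of CSF1R (ENSG00000157368.10, at chr16:70579895-70660682 on the plus strand of hg38), had 22 and 9 reads in positive controls and 36 and 39 reads in negative controls. RES had 56, 48 and 46 reads, POG 36, 51 and 51, and DEG 27 and 50. The 2 positive controls lay below every other library, and the serum-starved and compound groups lay close together.

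IL34 was at 0.329 ± 0.164 CPM in positive controls (SD, n = 2) and 0.955 ± 0.0359 CPM in negative controls (SD, n = 2), a log2 difference of −1.50 (SE 0.395, 2.83-fold lower, edgeR exact test, FDR 3.45e-04). Its size rested on which positive control was used: it was −2.14 without positive control replicate 1 and −1.09 without positive control replicate 2, both called (edgeR exact test, FDR 1.93e-04 and 0.0313). None of the compounds moved it past the test: the log2 difference from negative controls was 0.23 in RES (95% interval −0.40 to 0.86, edgeR exact test, FDR 0.733), 0.09 in POG (−0.54 to 0.72, edgeR exact test, FDR 0.950) and 0.05 in DEG (−0.66 to 0.75, edgeR exact test, FDR 1). As compared with positive controls, IL34 was higher in RES by 1.73, in POG by 1.59 and in DEG by 1.54 (edgeR exact test, FDR 2.06e-06, 1.46e-05 and 1.43e-04). Without positive control replicate 1 these were 2.37, 2.24 and 2.19, without positive control replicate 2 they were 1.32, 1.18 and 1.14, and all were called by the edgeR exact test. The difference for DEG was 1.05 and not called without DEG replicate 2 (edgeR exact test, FDR 0.0672). CSF1 and IL34 thus differed in the same direction between serum-fed and serum-starved osteoblasts, and with POG and DEG only the difference in CSF1 passed the test.

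SEMA3A, the semaphorin (ENSG00000075213.10, at chr7:83955777-84492724 on the minus strand of hg38), was at 50.0 and 54.7 CPM in positive controls and 38.7 and 39.5 CPM in negative controls. It was at 47.2, 49.2 and 48.6 CPM in RES, 33.1, 30.8 and 34.2 CPM in POG, and 35.9 and 39.0 CPM in DEG. RES libraries lay between both controls, POG libraries lay below every other library, and DEG overlapped the negative controls.

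SEMA3A rose in positive controls by 0.42 on the log2 scale as compared with negative controls (SE 0.0570, 1.34-fold, edgeR exact test, FDR 1.09e-11) and in RES by 0.31 (SE 0.0528, 1.24-fold, edgeR exact test, FDR 1.19e-06). It was lower in POG by −0.26 (SE 0.0541, 1.19-fold lower, edgeR exact test, FDR 1.06e-04). For DEG the log2 difference was −0.06, with a 95% interval of −0.18 to 0.06 (edgeR exact test, FDR 0.637). The 3 calls stood in every alternative run. RES and positive controls were neighbours in the order of means, with a log2 difference of −0.11 (95% interval −0.22 to −0.0098, edgeR exact test, FDR 0.0614), which was called without positive control replicate 1 (edgeR exact test, FDR 0.00429).

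The summed level of 4 endothelial markers, like SEMA3A, was highest in positive controls and RES and lowest in POG. It was 56.5 to 59.7 CPM in positive controls, 42.3 to 44.1 in negative controls, 52.8 to 59.5 in RES, 35.2 to 37.3 in POG and 38.1 to 38.6 in DEG. Unlike SEMA3A, the sum overlapped between RES and positive controls, and in DEG it lay below the negative controls. Nearly all of the sum was TEK, the angiopoietin receptor gene, at 33.1 to 56.7 CPM a library. PECAM1 had 50 to 110 reads and KDR 12 to 70 reads a library, while CDH5, which marks endothelial junctions, had 0 to 5 reads. The part of these markers in the SEMA3A result was not tested.

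The compounds were compared with each other in 3 pairs at the same dose. POG and RES differed in 4 of the 5 genes, all lower in POG, where 27.9% of all genes were called and 14.1% were lower. TNFSF11 was lower in POG than in RES by −2.93 on the log2 scale (SE 0.614, 7.60-fold lower, edgeR exact test, FDR 5.59e-06), and the call stood in every alternative that gave a value. TNFRSF11B was lower by −0.43 (SE 0.0459, edgeR exact test, FDR 7.32e-18), CSF1 by −0.34 (SE 0.0314, edgeR exact test, FDR 1.87e-21) and SEMA3A by −0.56 (SE 0.0471, edgeR exact test, FDR 4.07e-29). IL34 differed by −0.14, with a 95% interval of −0.68 to 0.40 (edgeR exact test, FDR 0.765). Resveratrol is a stilbene and peonidin-3-O-glucoside a glycosylated flavonoid, so this pair differs in its whole scaffold.

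DEG and RES differed in 3 of the 5 genes, all lower in DEG, where 21.2% of all genes were called and 10.8% were lower. TNFRSF11B was lower in DEG by −0.31 (SE 0.0521, edgeR exact test, FDR 3.85e-07), CSF1 by −0.36 (SE 0.0358, edgeR exact test, FDR 2.42e-18) and SEMA3A by −0.37 (SE 0.0532, edgeR exact test, FDR 7.35e-10). TNFSF11 differed by −0.30 (95% interval −1.33 to 0.73, edgeR exact test, FDR 0.778) and IL34 by −0.18 (−0.81 to 0.44, edgeR exact test, FDR 0.748).

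DEG and POG differed in 1 of the 5 genes, where 1.05% of all genes were called. TNFSF11 was higher in DEG by 2.62 on the log2 scale (SE 0.698, 6.17-fold, edgeR exact test, FDR 0.00916), with 15 and 11 reads against 3, 2 and 2. The call was lost in the edgeR quasi-likelihood test (FDR 0.0692) and without POG replicate 2 or 3 or either DEG library (edgeR exact test, FDR 0.0577 to 0.313), and DESeq2 gave the gene no adjusted p. For SEMA3A the log2 difference was 0.19 (95% interval 0.08 to 0.31, edgeR exact test, FDR 0.0508), and it was called with dispersions from the 2 groups alone (edgeR exact test, FDR 0.00404). For TNFRSF11B it was 0.12 (0.02 to 0.23, edgeR exact test, FDR 0.357), for CSF1 −0.02 (−0.09 to 0.05, edgeR exact test, FDR 0.937) and for IL34 −0.05 (−0.67 to 0.58, edgeR exact test, FDR 1).

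**Figure D4:**
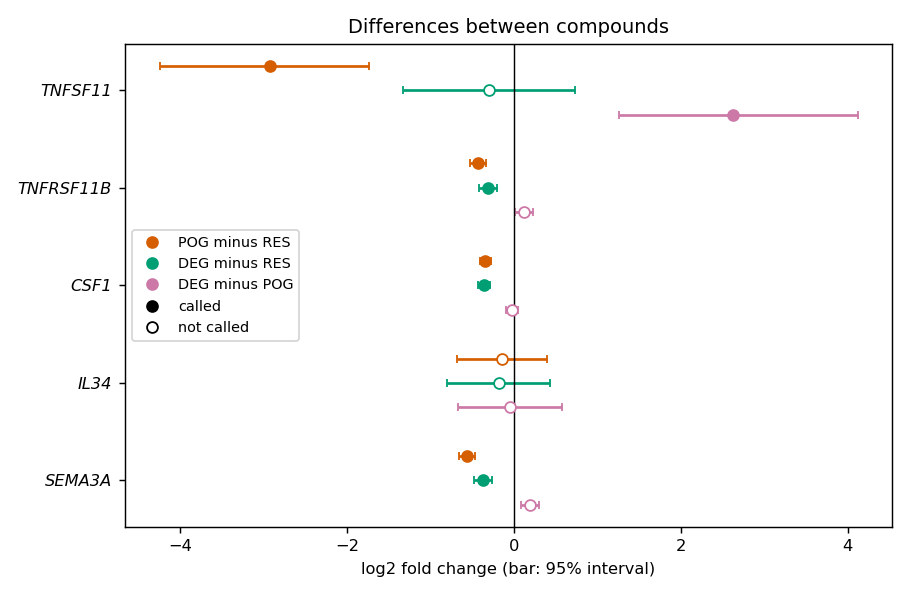
Log2 fold change of each gene between compounds (horizontal axis) for POG minus RES, DEG minus RES and DEG minus POG, with bars for the 95% interval of the edgeR quasi-likelihood fit and filled points for called genes. POG and DEG both lie below RES for TNFRSF11B, CSF1 and SEMA3A, and TNFSF11 is the gene in which DEG lies 2.62 above POG.

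As compared with positive controls, POG-treated osteoblasts differed in 5 of 5 genes, RES-treated in 3 and DEG-treated in 4, where 47.9%, 45.7% and 43.4% of all genes were called. The CSF1 calls in POG and DEG were lost in several alternatives, as given above, and the IL34 call in DEG without DEG replicate 2. TNFRSF11B was lower than in serum in all compound groups, by −1.18 in POG (SE 0.0482, 2.26-fold lower, edgeR exact test, FDR 1.76e-123), −1.05 in DEG (SE 0.0543, 2.08-fold lower, edgeR exact test, FDR 1.03e-78) and −0.75 in RES (SE 0.0471, 1.68-fold lower, edgeR exact test, FDR 5.69e-52). These calls stood in every alternative, with much larger FDR in some. In every comparison with positive controls, the dispersions were shared over all 12 libraries, while the positive controls differed by 10.96 times the sampling noise. The FDR there do not measure the spread of the positive controls alone. SEMA3A was lower in POG by −0.68 (edgeR exact test, FDR 1.67e-35) and in DEG by −0.48 (edgeR exact test, FDR 4.47e-15). CSF1 was higher in RES by 0.25 (SE 0.0352, edgeR exact test, FDR 4.74e-10).

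The other genes of the pathway were counted by list, against the same negative controls, beside a median log2 fold change over all tested genes that lay between −0.0059 and 0.0023. Of 4 receptors and partners of RANKL, 1 was called in each comparison, where 42.4% of all genes were called in positive controls, 11.2% in RES, 14.5% in POG and 9.63% in DEG. TNFSF10, which encodes TRAIL, another ligand bound by osteoprotegerin, was lower in POG by −0.79 and in DEG by −0.88 on the log2 scale (edgeR exact test, FDR 7.69e-04 and 0.00156), and neither was called without negative control replicate 2 (edgeR exact test, FDR 0.0946 and 0.0988). TRAF6, an adaptor of RANK, was higher in RES by 0.25 (edgeR exact test, FDR 0.0172), a call also lost without that control (edgeR exact test, FDR 0.314), and LGR4, a further RANKL receptor, was lower in positive controls by −0.30 (edgeR exact test, FDR 2.23e-06). The list medians were −0.15 in positive controls, 0.15 in RES, 0.02 in POG and 0.05 in DEG.

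Of 5 proteases that can shed RANKL from the cell surface, 4 were tested, and MMP7, with 0 to 4 reads a library, was not. MMP3, stromelysin, was called lower in all 4 comparisons, by −1.09 in positive controls, −1.15 in RES, −1.29 in POG and −1.38 in DEG on the log2 scale (edgeR exact test, FDR 1.33e-20, 1.33e-26, 2.70e-33 and 3.31e-28). Its mean level was 12.2 CPM in negative controls and 4.70 to 5.74 CPM in the other groups. ADAM17 and ADAM10, membrane sheddases, were lower in POG by −0.19 and −0.10 (edgeR exact test, FDR 2.91e-04 and 0.0450), the latter a call lost with any library of either group left out. ADAM10 was also lower in positive controls by −0.18 (edgeR exact test, FDR 2.25e-05). MMP14, a membrane-type protease, was higher in positive controls by 0.08 and in RES by 0.13 (edgeR exact test, FDR 0.0363 and 5.30e-04), and the former was not called without either negative control, with plain totals, with no filter or with dispersions from the 2 groups alone (edgeR exact test, FDR 0.0979 to 0.394). The list medians were −0.14 in positive controls, 0.00 in RES, −0.14 in POG and −0.06 in DEG.

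Of 3 receptors that bind CSF1 or IL34, 2 were tested. CSF1R, the shared receptor, was at 1.50 to 3.07 CPM over all libraries and was lower in DEG by −0.60 on the log2 scale (edgeR exact test, FDR 0.0413), which was not called once negative control replicate 1 (edgeR exact test, FDR 0.497) or either DEG library was left out. SDC1, syndecan 1, a proteoglycan that binds IL34, was higher in positive controls by 0.33 (edgeR exact test, FDR 3.78e-15) and lower in DEG by −0.15 (edgeR exact test, FDR 0.00558), the latter not called without DEG replicate 2 or either negative control. Neither receptor was called in RES or POG.

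Of 12 other class 3 semaphorins and their receptors, 11 were tested. In POG 6 were lower and none higher, in DEG 5 were lower and none higher, in RES 2 were lower and none higher, and in positive controls 3 were higher and 3 lower. Over all genes 8.57%, 6.11% and 6.21% were lower in POG, DEG and RES, and 21.4% were higher and 20.9% lower in positive controls. NRP1, neuropilin 1, to which SEMA3A binds, was higher in positive controls by 0.32 and lower in RES by −0.23, in POG by −0.46 and in DEG by −0.43 on the log2 scale (edgeR exact test, FDR 7.39e-15, 9.29e-09, 6.49e-35 and 5.89e-24). NRP1 and SEMA3A were thus both lower in POG and both higher in serum, and in RES NRP1 was lower where SEMA3A was higher. SEMA3C was higher in positive controls by 0.34 and lower in POG by −0.51 and in DEG by −0.32 (edgeR exact test, FDR 1.24e-09, 1.30e-22 and 4.01e-07). SEMA3D was lower in positive controls by −1.30, in POG by −0.77 and in DEG by −0.61 (edgeR exact test, FDR 4.92e-11, 4.29e-05 and 0.0108), and the last was not called without negative control replicate 2 (edgeR exact test, FDR 0.290) or DEG replicate 2 (edgeR exact test, FDR 0.378). In DEG, 3 of the 5 calls were left without negative control replicate 2 or without DEG replicate 2. In RES the second call was NRP2, neuropilin 2, at −0.14 (edgeR exact test, FDR 0.00716), lost without negative control replicate 2 (edgeR exact test, FDR 0.206) or RES replicate 2. The list medians were −0.02 in positive controls, −0.02 in RES, −0.19 in POG and −0.16 in DEG.

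Of 13 receptors and factors known to regulate TNFSF11, all were tested, and 5 were lower in POG, 5 in DEG and 2 in RES with none higher, while in positive controls 8 were lower and 1 higher. Over all genes 8.57% were lower in POG, 6.11% in DEG, 6.21% in RES and 20.9% in positive controls. IL1R1, the receptor of interleukin 1, was lower in all 4 comparisons, by −0.81 in positive controls, −0.18 in RES, −0.61 in POG and −0.55 in DEG on the log2 scale (edgeR exact test, FDR 2.19e-92, 2.16e-05, 7.33e-63 and 1.23e-41). OSMR, the oncostatin M receptor, was also lower in all 4, by −0.18 in positive controls, −0.14 in RES, −0.22 in POG and −0.19 in DEG (edgeR exact test, FDR 8.33e-06, 0.00102, 5.62e-09 and 2.12e-05), and in RES it was not called without negative control replicate 2 (edgeR exact test, FDR 0.0504). IL6ST, its signalling partner gp130, was lower in positive controls by −0.12, in POG by −0.21 and in DEG by −0.14 (edgeR exact test, FDR 0.0275, 3.09e-05 and 0.0436). VDR, the vitamin D receptor, was lower in POG by −0.21 and in DEG by −0.27 (edgeR exact test, FDR 9.81e-05 and 5.71e-06). NR3C1, the glucocorticoid receptor, was lower in positive controls by −0.30, in POG by −0.21 and in DEG by −0.21 (edgeR exact test, FDR 4.66e-11, 3.93e-06 and 6.67e-05). IL11RA and LRP6, receptors for interleukin 11 and Wnt proteins, were lower in positive controls by −0.59 and −0.38 (edgeR exact test, FDR 7.22e-14 and 8.53e-06). The list medians were −0.16 in positive controls, −0.04 in RES, −0.07 in POG and −0.14 in DEG.

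Of 17 other factors through which osteoblasts act on osteoclasts or their precursors, 11 were lower in POG, 10 in DEG and 6 in RES with none higher, where 8.57%, 6.11% and 6.21% of all genes were lower, and in positive controls 7 were higher and 6 lower, where 21.4% and 20.9% of all genes were. CXCL12, a chemokine that draws precursors, was lower in positive controls by −0.27, in RES by −0.49, in POG by −0.80 and in DEG by −0.77 on the log2 scale (edgeR exact test, FDR 5.36e-04, 2.31e-11, 4.88e-29 and 3.78e-21). CCL2, a monocyte chemokine, was lower in the same order by −0.42, −0.28, −0.51 and −0.66 (edgeR exact test, FDR 9.91e-25, 2.00e-12, 9.44e-43 and 4.97e-57), and PTGS2, the inducible enzyme of prostaglandin synthesis, by −0.24, −0.39, −0.30 and −0.34 (edgeR exact test, FDR 3.30e-06, 2.39e-16, 5.79e-10 and 3.47e-10). IL6, a cytokine that raises osteoclast formation, was lower in positive controls by −0.41, in POG by −0.73 and in DEG by −0.66 (edgeR exact test, FDR 3.52e-27, 7.96e-101 and 1.73e-65), and in RES its difference was 0.05 (edgeR exact test, FDR 0.422). SPP1, osteopontin, which anchors osteoclasts to bone, was lower in POG by −0.81 and in DEG by −0.77 (edgeR exact test, FDR 0.00470 and 0.0318). Neither was called without negative control replicate 2, and the call in POG was also lost without POG replicate 1 (edgeR exact test, FDR 0.0598). That in DEG was lost too in the edgeR quasi-likelihood test (FDR 0.0614), in DESeq2 (FDR 0.0708), and without negative control replicate 1 or either DEG library. In positive controls VEGFA, an angiogenic factor, was higher by 1.20 and SFRP1, a secreted Wnt antagonist, by 1.00 (edgeR exact test, FDR 6.08e-237 and 2.65e-18). WNT16, a Wnt protein that restrains osteoclasts, had 62 and 65 reads in positive controls against 0 and 2 in negative controls, a log2 difference of 5.62 (95% interval 4.20 to 7.34, edgeR exact test, FDR 6.25e-16). The list medians were 0.07 in positive controls, −0.16 in RES, −0.30 in POG and −0.25 in DEG.

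**Figure D5:**
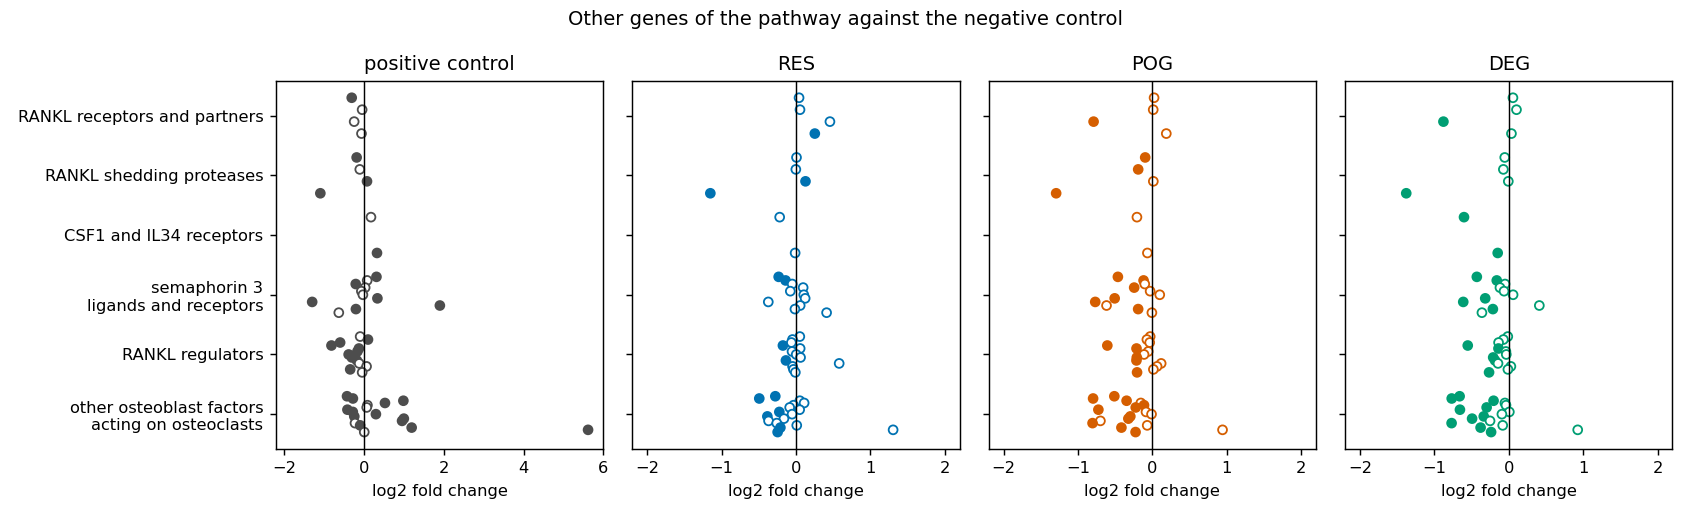
Log2 fold change against the negative controls (horizontal axis, wider in the first panel) of each tested gene of the 6 pathway lists (rows), in positive controls, RES, POG and DEG (panels), with filled points for called genes and open points for the rest. In POG and DEG every filled point lies left of 0, and in positive controls WNT16 lies at 5.62.

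For the 3 more abundant genes, TNFRSF11B, CSF1 and SEMA3A, the genes whose log2 level followed them most closely over the 12 libraries are given as a description, since the libraries share the groups and 13405 genes were compared. TNFRSF11B was followed most closely by PLOD2, CDCP1 and FGF2 (Pearson r 0.988, 0.988 and 0.987), CSF1 by OLFML2B, FZD1 and MCAM (0.988, 0.973 and 0.969), and SEMA3A closely by NEDD4L and TBC1D4 (0.978 and 0.972).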

How the data were processed

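The values analysed are raw counts of reads on genes, as deposited by the authors in a single table. Per their methods, polyA-selected RNA was sequenced in read pairs, aligned to hg38 with STAR (BWA MEM was also named) and counted on Ensembl genes with featureCounts. Program versions, the release of the annotation, the strand setting and the handling of multi-mapped reads are not given in the sources used here. In GENCODE v44 no annotated gene overlaps any of the 5 genes.

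Symbols matched 43214 of 43836 identifiers. After filterByExpr by group, 17092 genes with 99.967% of the reads were tested. Counts were compared with the exact test of edgeR 4.0.16 in R 4.3.3, as in the study's methods, with TMM scaling and dispersions over all 12 libraries (common biological coefficient of variation 3.21%). SE and 95% intervals, not adjusted, came from edgeR's quasi-likelihood fit. P-values were adjusted by Benjamini-Hochberg over all tested genes and 10 pairs of groups were compared. Ratios used scipy 1.17.1. Reads are not independent molecules, so counting intervals cover counting error only.

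The 5 genes and the pathway and marker lists were chosen with earlier results of these data known. From each list at most 3 called genes per comparison with negative controls were named, those with the largest absolute log2 fold change whose mean reached 1 CPM in either group. Among the genes most like each of the 5, the 3 with the highest Pearson correlation of log2 CPM (prior count 2) were named, among genes whose mean reached 1 CPM. Values of these genes in further comparisons were added after they were seen. A gene chosen by these rules is not reported here and was not replaced. Counts were used for 12 of the 13 labelled samples, and DEG replicate 3 was not analysed here. Replicate numbers follow accession order. As alternatives, the quasi-likelihood test of edgeR and DESeq2 1.42.0 were run, and the exact test with DESeq2 size factors or plain totals, other filters, dispersions from the compared groups, an FDR of 0.01, other forms of the ratio, and leaving out each library. Those on the pathway lists were added after the data were seen.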

Additional observations from a re-analysis of the deposited data

How the results depend on the processing

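The 5 genes gave 33 calls in 50 tests, and 25 of these were lost in none of the alternatives. No paired analysis was possible because replicate numbers only follow accession order, so they pair no samples. Where a group was left with 1 library, that library was assumed to vary like the others. A mean of at least 1 CPM removed TNFSF11, so that alternative gave it no value, and DESeq2 gave TNFSF11 no adjusted p in several comparisons.

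The number of genes called changed for RES against negative controls, which had 3 and ranged from 1 to 3 with a library left out (1 without negative control replicate 2 and without RES replicate 3). For DEG against POG the 1 call became 0 with the quasi-likelihood test and with DESeq2 and 2 with DESeq2 size factors and with dispersions from the groups compared, and ranged from 0 to 1 with a library left out (0 without POG replicate 2 or either DEG library). For DEG against positive controls the 4 calls became 2 without DEG replicate 2. These were not the only changes. TNFSF11 in POG against negative controls was not called without negative control replicate 1. CSF1 in positive against negative controls was not called with dispersions from the groups compared. CSF1 in POG and in DEG against positive controls was lost in several alternatives, as given above, and also without positive control replicate 1.

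The F statistic of the ratio, 7.31, was 4.28 on ranks (exact permutation p = 0.0528) and ranged from 4.47 to 20.6 with a library left out. Log2 ratio differences from negative controls ranged, with a library left out, from −1.37 to 0.43 in positive controls, −0.49 to 1.31 in RES, −2.77 to −0.97 in POG and −0.43 to 1.37 in DEG.

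Single log2 differences that changed sign were all uncalled and did so only with a library left out. TNFSF11 ranged from −0.77 to 1.02 in positive controls against negative controls (1.02 without negative control replicate 1), −0.59 to 1.21 in RES against negative controls (−0.59 without negative control replicate 2 and −0.29 without RES replicate 3) and −0.88 to 0.91 in DEG against negative controls (0.91 without negative control replicate 1). It ranged from −0.55 to 0.04 in DEG against RES (0.038 without RES replicate 3), −0.15 to 0.35 in RES against positive controls (−0.15 without RES replicate 3) and −0.36 to 0.10 in DEG against positive controls (0.10 without DEG replicate 2). IL34 ranged from −0.0090 to 0.24 in POG and −0.45 to 0.41 in DEG against negative controls, −0.24 to 0.0079 in POG against RES, −0.68 to 0.18 in DEG against RES and −0.54 to 0.32 in DEG against POG. CSF1 ranged from −0.050 to 0.0084 in DEG against POG. The cause was not tested.

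With plain library totals in place of TMM, the share of called genes that were higher against negative controls was 64.0% in RES (44.3% with TMM), 55.9% in POG (40.9%) and 49.3% in DEG (36.6%), and against positive controls 65.2% in RES (49.2%), 63.3% in POG (49.6%) and 62.3% in DEG (48.7%). In positive controls against negative controls it was 41.0% (50.6%). Of 50 calls on pathway genes picked by the naming rule, 12 were lost in some alternative, and none changed sign. Calls of these genes in further comparisons, such as IL6ST in positive controls and in DEG, were not among the 50. Their stability is not given. Depth limits TNFSF11 and IL34 most, since 1 read was worth 0.0202 to 0.0258 CPM.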
